A study of Homo sapiens with 6 samples.

Results

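Classical cadherins and the transcription factors of epithelial–mesenchymal transition (EMT) were examined in the human neuroblastoma line SK-N-AS after knockdown of Prp19, a pre-mRNA splicing factor encoded by *PRPF19*. The 9 genes, of 58735 listed, were taken by symbol as *CDH1*, *CDH2*, *CDH11*, *VIM*, *SNAI1*, *SNAI2*, *TWIST1*, *ZEB1* and *ZEB2*. The rule that picks them holds no measured value, but they and the gene lists below were chosen with earlier results of these data known. Shares of called genes in the lists are therefore descriptions only. RNA sequencing (RNA-seq) compared 3 libraries from cells transfected with siPrp19, an siRNA (small interfering RNA) that targets Prp19, with 3 libraries from cells given a negative control siRNA (NC). Per the labels, the cells were collected 72 h after transfection, whereas the study's methods give a shorter time. All libraries came from 1 cell line. The methods list more than 1 siRNA against Prp19, and the study states that it went on with the first of them, so responses to another siRNA or in another line were not analysed here.

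Epithelial cells are held together by E-cadherin (*CDH1*), whose cytoplasmic tail binds catenins that link the junction to actin. In EMT, factors of the SNAIL (*SNAI1*, *SNAI2*), ZEB (*ZEB1*, *ZEB2*) and TWIST (*TWIST1*) families repress *CDH1*, and cells express N-cadherin (*CDH2*) and the intermediate filament protein vimentin (*VIM*) in its place. The same factors act in the neural crest, the embryonic origin of neuroblastoma, so their mRNAs can be present in such cells without an epithelial state having come before.

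The libraries are called NCa, NCb, NCc, siPrp19a, siPrp19b and siPrp19c here, after the value column inside each file. The file with column NCb is recorded under a sample labelled siPrp19, and the file with column siPrp19b under a sample labelled NC. Column names were used for grouping because each one equals the description of exactly 1 sample. *PRPF19* was at 83.0, 83.1 and 93.0 FPKM (fragments per kilobase of exon, scaled to the depth of the library) in NCa, NCb and NCc, and at 19.6, 19.1 and 18.5 FPKM in siPrp19a, siPrp19b and siPrp19c. The target was thus low in all 3 libraries with a siPrp19 column name, including the one recorded as NC. Between 14887132 and 19977811 reads per library were recovered from the values. Divided by the depth that the FPKM scale implies, these gave 1.01, 1.01 and 1.04 in NCa, NCb and NCc. The same ratio was 0.989, 0.961 and 0.951 in siPrp19a, siPrp19b and siPrp19c. One alternative fit, voom, scaled each library to its recovered reads and so does not carry this offset. The median log2 fold change of all tested genes was 0.05 in that fit, against -0.02 on the deposited values. Because voom also weights values differently, the part of the offset alone in the fold changes was not tested. Counts of reads between NCa and NCb gave a chi-square statistic of 1.67 per degree of freedom, and siPrp19b and siPrp19c gave 2.45, against at least 16.05 for any other pair of libraries. A value near 1 is sampling noise, so these pairs lay much closer together than other libraries of the same group. NCc and siPrp19a stood apart. Outside the close pairs, values ran from 16.05 to 18.56 within groups and from 16.07 to 41.28 between groups, so these ranges overlapped. Mitochondrial genes took 8.29% of the reads in siPrp19a and 5.15% to 5.49% elsewhere. Of 12 sympathoadrenal markers, 11 exceeded a mean of 1 FPKM, with *HAND2* the most abundant, and *TH*, which encodes tyrosine hydroxylase, stayed below 1 FPKM in every library.

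Promoter windows were available in the RefSeq table (GRCh38.p14, 300 bases around a transcription start) for 4 of the 9 genes, *CDH2*, *VIM*, *ZEB1* and *ZEB2*. SNAIL and ZEB proteins bind the E2-box CACCTG, a form of the E-box CANNTG, and 3 of the 11 windows are shown because one holds the most CACCTG matches of all and the others, from the most abundant genes of the set, hold none. Capitals mark every CANNTG.
*ZEB1* chr10:31318966-31319265, plus strand: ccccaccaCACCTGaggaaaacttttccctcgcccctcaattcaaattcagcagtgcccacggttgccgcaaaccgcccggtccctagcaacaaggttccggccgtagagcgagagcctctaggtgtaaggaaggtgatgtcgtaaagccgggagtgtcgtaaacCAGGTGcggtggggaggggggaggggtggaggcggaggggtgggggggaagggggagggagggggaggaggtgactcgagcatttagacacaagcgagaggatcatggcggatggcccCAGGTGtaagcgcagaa
*VIM* chr10:17227991-17228290, plus strand: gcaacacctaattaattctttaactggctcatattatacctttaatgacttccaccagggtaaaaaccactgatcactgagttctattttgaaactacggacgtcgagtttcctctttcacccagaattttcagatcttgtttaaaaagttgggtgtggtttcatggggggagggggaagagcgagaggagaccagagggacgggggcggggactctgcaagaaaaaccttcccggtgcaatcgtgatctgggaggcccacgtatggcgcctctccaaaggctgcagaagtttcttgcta
*CDH2* chr18:28177081-28177380, minus strand: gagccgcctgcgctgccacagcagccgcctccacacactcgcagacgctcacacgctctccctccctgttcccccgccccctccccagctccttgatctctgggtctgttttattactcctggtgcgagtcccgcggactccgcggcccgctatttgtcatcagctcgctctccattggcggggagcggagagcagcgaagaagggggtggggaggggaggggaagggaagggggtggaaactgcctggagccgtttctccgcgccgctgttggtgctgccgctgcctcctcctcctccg
The *ZEB1* window printed here held 3 CACCTG matches on either strand, beginning at bases 9, 166 and 284 from its 5′ end. Of the other *ZEB1* windows, 1 held a single match and the rest held none. The windows of *VIM* and *CDH2* printed here had no CANNTG, whereas the other *CDH2* window in the table held 1. Among all 35116 windows of this length, 20.6% held CACCTG on either strand and 68.7% held CANNTG. A match describes letters only, and binding was not measured.

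SK-N-AS cells expressed a mesenchymal set of these genes and almost no E-cadherin mRNA, in both groups. In NC, mean levels ran from 161 ± 7.93 FPKM (SD, n = 3) for *CDH2* and 138 ± 21.0 FPKM for *VIM*, through *TWIST1* (57.2 ± 6.31), *CDH11* (31.9 ± 2.30) and *SNAI1* (15.6 ± 2.04), to *ZEB1* (6.35 ± 1.01), *SNAI2* (5.36 ± 0.395) and *ZEB2* (3.00 ± 0.400 FPKM). *CDH2* exceeded the NC level of 98.7% of the 13718 genes with a mean of at least 1 FPKM, and *VIM* that of 98.3%. The order was the same in siPrp19. Neighbours in this order whose ranges overlapped were *ZEB1* and *SNAI2* in both groups, and *CDH2* and *VIM* in NC. FPKM divides by all merged exons of a gene, which together are 2.42 times as long as the longest coding transcript in *VIM* and 2.61 times in *ZEB2*. Per kilobase of that transcript, *VIM* was first at 333 and *CDH2* second at 184, and *ZEB2* (7.84) moved above *SNAI2* (7.48).

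**Figure D1:**
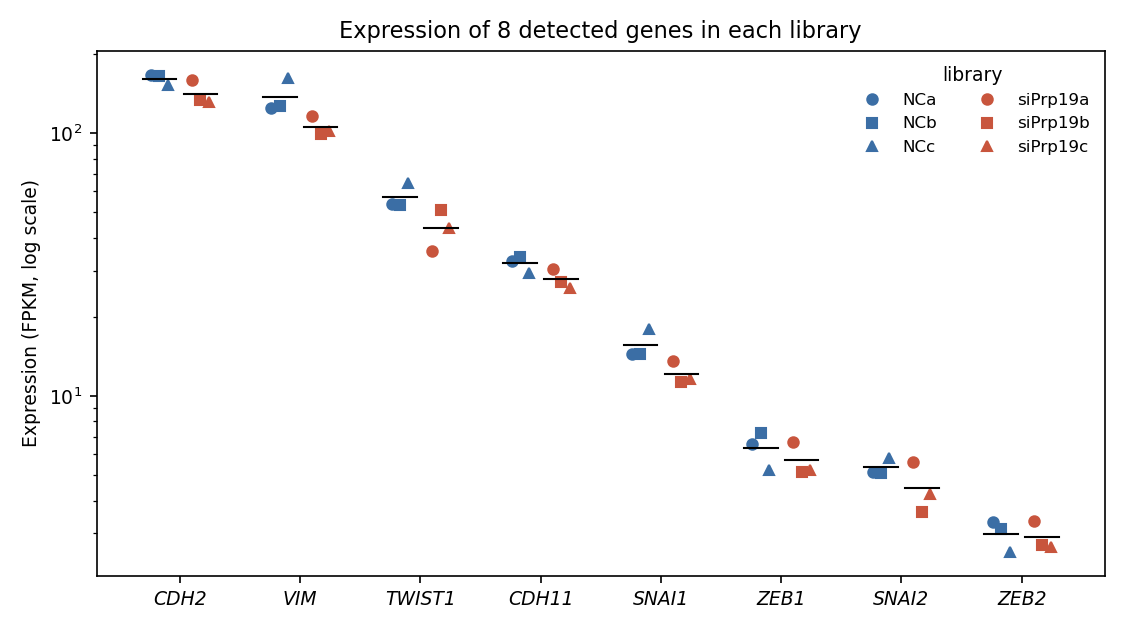
Expression of the 8 genes above the filter in each library, in FPKM on a log axis, with 1 symbol per library and a black line at each group mean. The siPrp19 symbols lie wholly below the NC symbols for *VIM*, *TWIST1* and *SNAI1*, and the groups overlap for the 5 others.

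After Prp19 knockdown, no gene of the set changed past the adjusted threshold. The log2 fold changes, on log2(FPKM + 1) by limma, ran from -0.40 for *TWIST1* to -0.03 for *ZEB2*, so every estimate lay below 0 with the 6 libraries grouped by column name. Of the 8 genes tested, 0 had an adjusted p-value under 0.05, against 7.94% of all tested genes (1089 of 13718; 5.37% lower and 2.57% higher), and voom on the recovered reads called 0 of the 8 against 9.99% of all tested genes. At an unadjusted p-value under 0.05 there were 3 of 8 by limma and 3 of 8 by voom, against 23.6% and 25.9% of all tested genes. The siPrp19 libraries lay wholly below the NC libraries in 3 of 8 genes, against 18.1% of all tested genes, and wholly above in 0 of 8, against 13.2%. The median log2 fold change was -0.21 over the 8 genes and -0.02 over all tested genes, of which 54.0% were below 0.

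These counts depend on the libraries. The number of all genes called fell to 264 without NCa, 335 without NCb, 270 without siPrp19b and 253 without siPrp19c, and to 2 when each close pair was averaged to 1 value. Grouped by the recorded sample, 0 of 13718 genes were called by limma with 191 at an unadjusted p-value under 0.05, and 3 of the 8 estimates were below 0. Across scalings, the share of higher genes among calls was 32.4% as deposited, 46.1% after quantile normalization and 54.5% with voom. The median of all tested genes moved by less than 0.1 between these scalings.

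**Figure D2:**
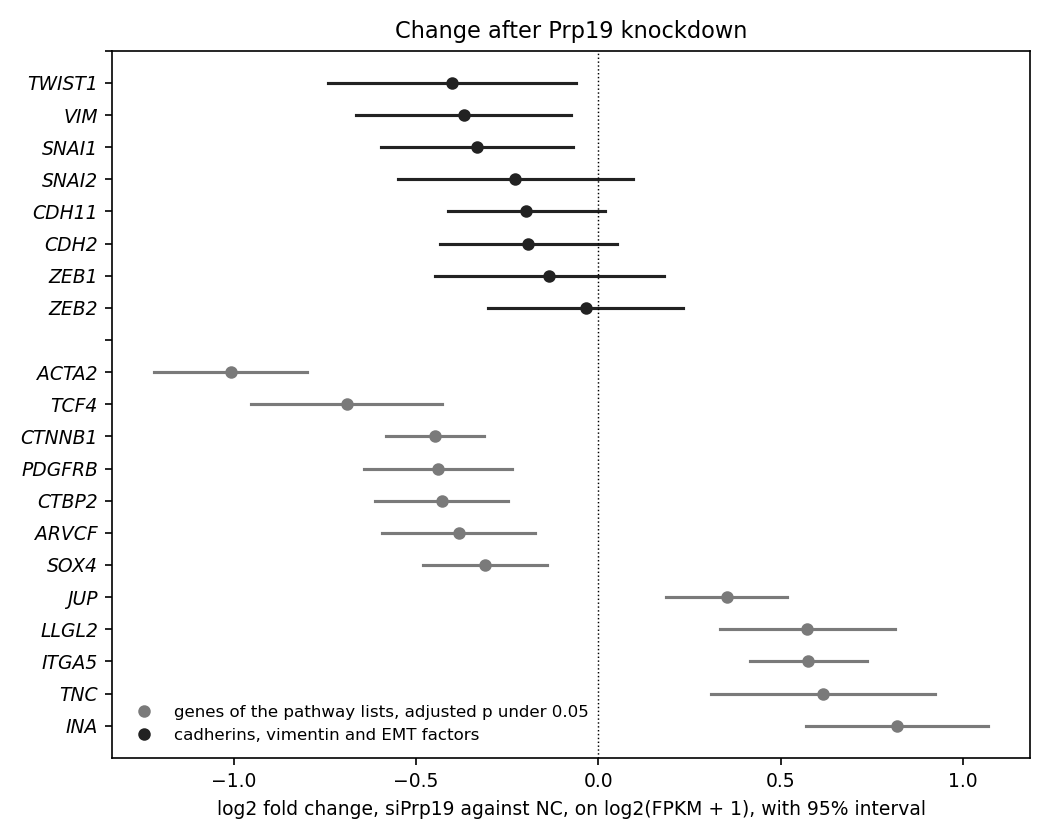
Log2 fold change on log2(FPKM + 1), siPrp19 against NC, with its 95% interval from limma (3 libraries a group), for the 8 genes tested (black) and the 12 genes of the pathway lists with an adjusted p-value under 0.05 (grey). The intervals of *TWIST1*, *VIM* and *SNAI1* end below 0 before adjustment, those of the 5 other black genes include 0, and the grey genes range from *ACTA2* at -1.01 to *INA* at 0.82.

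The cadherins were examined first. *CDH1* (ENSG00000039068; chromosome 16, 68737225 to 68835548, plus strand, GRCh38) had 2, 1 and 0 reads in NCa, NCb and NCc, and 0, 0 and 1 read in siPrp19a, siPrp19b and siPrp19c. The floor of 3 reads corresponds to 0.0231 to 0.0329 FPKM, and no library exceeded it, so no fold was computed. The two-sided exact permutation test on FPKM gave p = 0.4 (3 libraries against 3, where the smallest possible p is 0.1). With so few reads in NC, a fall in *CDH1* could not be detected at this depth. A rise above the floor was not seen in any siPrp19 library, and differences below the floor could not be resolved. In the same cells, *CDH2* was read at least 10891 times per library.

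*CDH2* (ENSG00000170558; chromosome 18, 27950966 to 28177446, minus strand), which encodes N-cadherin, was at 167, 164 and 152 FPKM in NCa, NCb and NCc, and at 159, 133 and 131 FPKM in siPrp19a, siPrp19b and siPrp19c. The groups overlapped, because siPrp19a was higher than NCc. The log2 fold change was -0.19 ± 0.10 (SE), with a 95% interval from -0.43 to 0.05 (limma, adjusted p = 0.314). A fall to less than 0.740 times the NC level therefore lay outside the unadjusted interval.

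*CDH11* (ENSG00000140937; chromosome 16, 64943753 to 65126112, minus strand) encodes the type II cadherin OB-cadherin, found in mesenchymal and neural crest cells. It was at 32.6, 33.8 and 29.4 FPKM in NCa, NCb and NCc, and at 30.5, 27.0 and 25.7 FPKM in siPrp19a, siPrp19b and siPrp19c. Again siPrp19a exceeded NCc and no other NC library. The log2 fold change was -0.20 ± 0.09 (SE), with an interval from -0.41 to 0.02 and an adjusted p-value of 0.247. Both cadherins kept their proportion to each other, with 4.86 to 5.18 times as much *CDH2* as *CDH11* per length in NC and 4.93 to 5.22 times in siPrp19.

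Of 16 other cadherin genes, only *CDH10* and *CDH24* had a mean of at least 1 FPKM. Of these 2, 0 passed the adjusted threshold by limma or voom, against 7.94% and 9.99% of all tested genes. By limma, 0 had an unadjusted p-value under 0.05, against 23.6% of all tested genes. Their median log2 fold change was -0.07. *CDH24*, a type II cadherin, was the higher of the pair, at 17.1 ± 0.585 FPKM in NC and 18.8 ± 0.945 FPKM in siPrp19 (SD, n = 3 each), with an adjusted p-value of 0.308.

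Among the catenins and other linkers of cell junctions, 8 of 11 genes were tested. Of these, 1 rose and 2 fell (37.5%, against 7.94% of all tested genes). *CTNNB1*, which encodes β-catenin, was at 20.2, 20.4 and 20.2 FPKM in NCa, NCb and NCc, and at 14.6, 14.6 and 14.5 FPKM in siPrp19a, siPrp19b and siPrp19c. The spread within each group was far smaller than the gap between them, including in NCc and siPrp19a. The log2 fold change of *CTNNB1* was -0.45 ± 0.06 (SE; adjusted p = 0.00807). *JUP*, encoding plakoglobin (γ-catenin), the close relative of β-catenin at the junction, rose from 10.2 ± 0.513 to 13.3 ± 0.702 FPKM (SD, n = 3 each), or by 0.35 on the log2 scale (adjusted p = 0.0294). *ARVCF*, a p120-related catenin, fell from 3.97 ± 0.284 to 2.82 ± 0.288 FPKM (adjusted p = 0.0463). The median log2 fold change over the 8 genes was -0.0031. The calls held in 10 of 16 alternatives for *CTNNB1*, 6 for *JUP* and 4 for *ARVCF*. That of *CTNNB1* was lost at adjusted p-values of 0.0513, 0.0501 and 0.0531 without NCa, siPrp19b and siPrp19c, that of *JUP* without any library but NCc, and that of *ARVCF* without any one library. None of these 3 calls held when each close pair was averaged, where the adjusted p-value of *CTNNB1* was 0.218 and its log2 fold change -0.45.

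*VIM* (ENSG00000026025; chromosome 10, 17228259 to 17237593, plus strand) was at 125, 126 and 162 FPKM in NCa, NCb and NCc, and at 116, 99.4 and 102 FPKM in siPrp19a, siPrp19b and siPrp19c. All siPrp19 libraries were lower than all NC libraries, but NCc exceeded the other NC libraries by about as much as the groups differed. The mean was 23.2% lower in siPrp19, with a log2 fold change of -0.37 ± 0.13 (SE), an interval from -0.67 to -0.07 and an adjusted p-value of 0.129. The exact permutation test gave p = 0.1, the smallest that 3 against 3 libraries allow. Between them, *CDH2* and *VIM* stood at a ratio of 1.34 in NCa, 1.30 in NCb and 0.939 in NCc, and of 1.38, 1.34 and 1.29 in siPrp19a, siPrp19b and siPrp19c. The low ratio belonged to NCc alone.

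The SNAIL factors are zinc finger repressors. *SNAI1* (ENSG00000124216; chromosome 20, 49982999 to 49988886, plus strand) was at 14.4, 14.4 and 18.0 FPKM in NCa, NCb and NCc, and at 13.6, 11.3 and 11.6 FPKM in siPrp19a, siPrp19b and siPrp19c, from 314 to 521 reads. The groups did not overlap, and NCc was again the highest. The mean was 22.1% lower in siPrp19, with a log2 fold change of -0.33 ± 0.11 (SE), an interval from -0.60 to -0.07 and an adjusted p-value of 0.126, the lowest of the set.

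*SNAI2* (ENSG00000019549; chromosome 8, 48917604 to 48921740, minus strand), which encodes SLUG, was at 5.16, 5.10 and 5.81 FPKM in NCa, NCb and NCc, and at 5.62, 3.61 and 4.23 FPKM in siPrp19a, siPrp19b and siPrp19c. Here siPrp19a lay among the NC values while siPrp19b and siPrp19c lay below them. The log2 fold change was -0.23 ± 0.14 (SE), with an interval from -0.55 to 0.09 and an adjusted p-value of 0.370. Without siPrp19a, it was -0.37 (adjusted p = 0.0737), the lowest of any gene of the set under any alternative. With 202 reads in its shallowest library, counting error alone was 7.04%, against a coefficient of variation of 23.0% among siPrp19 libraries. *SNAI1* was 2.80 to 3.09 times as abundant as *SNAI2* per length in NC, and 2.43 to 3.13 times in siPrp19.

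*TWIST1* (ENSG00000122691; chromosome 7, 19020991 to 19117672, minus strand), a basic helix-loop-helix factor of the neural crest, was at 53.7, 53.5 and 64.5 FPKM in NCa, NCb and NCc, and at 35.5, 51.1 and 43.6 FPKM in siPrp19a, siPrp19b and siPrp19c. The groups did not overlap, although siPrp19b lay only just below NCb. Of the siPrp19 libraries, siPrp19a was the lowest for *TWIST1* and the highest for every other gene tested in the set. The mean was 24.2% lower in siPrp19, with a log2 fold change of -0.40 ± 0.14 (SE), an interval from -0.74 to -0.06 and an adjusted p-value of 0.149.

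The ZEB factors, zinc finger and homeodomain repressors of *CDH1*, had the smallest differences. *ZEB1* (ENSG00000148516; chromosome 10, 31318495 to 31529814, plus strand) was at 6.56, 7.24 and 5.25 FPKM in NCa, NCb and NCc, and at 6.69, 5.16 and 5.22 FPKM in siPrp19a, siPrp19b and siPrp19c. *ZEB2* (ENSG00000169554; chromosome 2, 144364364 to 144524583, minus strand) was at 3.33, 3.11 and 2.55 FPKM in NCa, NCb and NCc, and at 3.36, 2.70 and 2.65 FPKM in siPrp19a, siPrp19b and siPrp19c. For both genes NCc sat with siPrp19b and siPrp19c, and siPrp19a sat with NCa and NCb, so the groups were interleaved. The log2 fold change of *ZEB1* was -0.13 ± 0.13 (SE), with an interval from -0.45 to 0.18, and its sign changed to 0.01 in the 4 libraries left without NCb and siPrp19b. That of *ZEB2* was -0.03 ± 0.11 (SE), with an interval from -0.30 to 0.23, and its sign changed to 0.03 with voom. Adjusted p-values were 0.601 and 0.887. *ZEB1* was 1.97 to 2.33 times as abundant as *ZEB2* per length in NC, and 1.91 to 1.99 times in siPrp19.

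**Figure D3:**
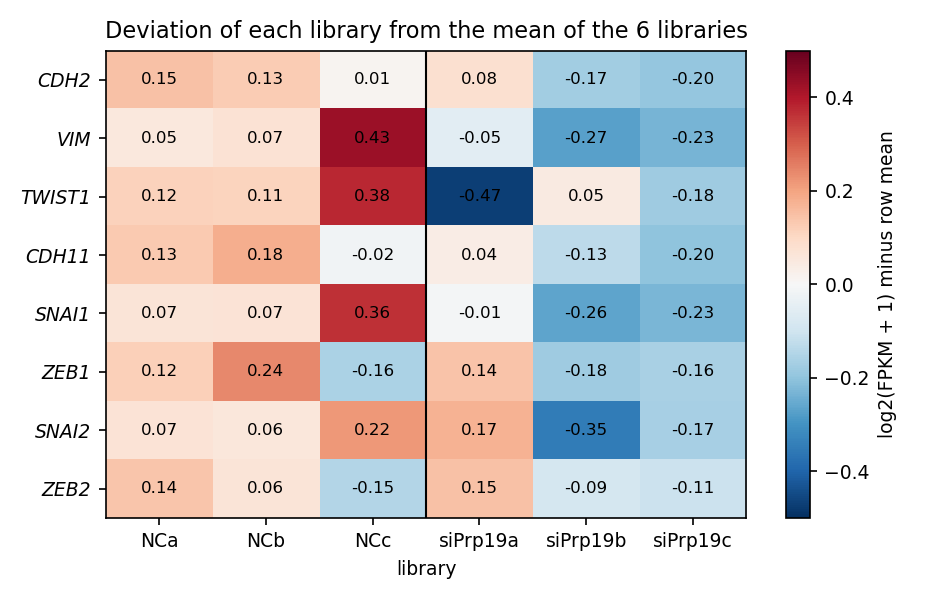
Deviation of each library from the mean of the 6 libraries, in log2(FPKM + 1), for the 8 genes tested, with NC libraries left of the black line and siPrp19 libraries right of it. NCc is the highest library for *VIM*, *SNAI1*, *SNAI2* and *TWIST1* but low for *ZEB1* and *ZEB2*, and siPrp19a is lowest for *TWIST1* at -0.47.

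Variation within groups was as large as the knockdown difference for most of the set. In log2(FPKM + 1), NCb differed from NCa by at most 0.12 in any of the 8 genes, and siPrp19c from siPrp19b by at most 0.22. The library outside each close pair departed further. NCc stood 0.36 above the mean of NCa and NCb for *VIM* and 0.34 below it for *ZEB1*, and siPrp19a stood 0.43 above the mean of siPrp19b and siPrp19c for *SNAI2* and 0.40 below it for *TWIST1*. The departure of siPrp19a was larger than the group difference in 6 of 8 genes, namely *CDH2*, *CDH11*, *SNAI2*, *TWIST1*, *ZEB1* and *ZEB2*. That of NCc was larger in 2 of 8, *ZEB1* and *ZEB2*. The part of the high mitochondrial share of siPrp19a in these departures was not tested.

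Other transcription factors of EMT followed. Of 13, 9 were tested, and 0 rose and 2 fell (22.2%, against 7.94% of all tested genes). Their median log2 fold change was -0.06. *TCF4*, which encodes the E-protein E2-2, a dimer partner of basic helix-loop-helix factors, was at 15.9, 15.7 and 12.5 FPKM in NCa, NCb and NCc, and at 9.50, 8.72 and 7.87 FPKM in siPrp19a, siPrp19b and siPrp19c. Its groups were well separated, at a log2 fold change of -0.69 ± 0.11 (SE; adjusted p = 0.0151). *SOX4* fell from 23.0 ± 0.690 to 18.4 ± 1.21 FPKM (SD, n = 3 each; adjusted p = 0.0458), a call that held in only 2 of 16 alternatives, a pseudocount of 0.1 and without NCc, and that voom did not make (adjusted p = 0.111). Among 17 corepressors and turnover factors of SNAIL and ZEB proteins, all tested, 0 rose and 1 fell (5.88%), with a median of -0.05. This was *CTBP2*, a corepressor that ZEB proteins recruit, at 7.72 ± 0.260 FPKM in NC and 5.48 ± 0.485 FPKM in siPrp19 (log2 fold change -0.43, adjusted p = 0.0208). The calls of *TCF4* and *CTBP2* each held in 8 of 16 alternatives, and both were lost without any one of NCa, NCb, siPrp19b or siPrp19c, at adjusted p-values of 0.0641 to 0.0711 for *TCF4* and 0.0793 to 0.0966 for *CTBP2*.

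Genes of the epithelial state, which EMT factors repress, were mostly at low levels, as *CDH1* was. Of 25, 17 stayed below 1 FPKM in every library, and *ESRP1*, *OVOL1*, *OVOL2* and *CRB3* were listed at 0 throughout. Of the 7 tested, 1 rose and 0 fell (14.3%, against 7.94% of all tested genes), with a median log2 fold change of 0.18. *LLGL2*, a basolateral polarity protein, rose from 1.10 ± 0.0880 to 2.13 ± 0.231 FPKM (SD, n = 3 each; 117 to 339 reads), with a log2 fold change on log2(FPKM + 1) of 0.57 (adjusted p = 0.0204). At this low level the pseudocount lowers the estimate, which was 0.89 with a pseudocount of 0.1 and 1.02 with voom. The *LLGL2* call held in 8 of 16 alternatives and was lost without any one of NCa, NCb, siPrp19b or siPrp19c (adjusted p = 0.0798, 0.0809, 0.0961 and 0.0830). Keratin genes *KRT8* and *KRT18* had log2 fold changes of -0.10 and -0.13, with adjusted p-values of 0.588 and 0.563.

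Markers of other cells the culture could hold were read beside these results. Of 12, 8 stayed below 1 FPKM in every library, and *ESRP1*, *CD3E* and *CDH5* were at 0 throughout. The summed level was 285 to 309 FPKM in NC and 180 to 224 FPKM in siPrp19, almost all of it from *LUM*, *DCN* and *PTPRC*. Of the 4 tested, 0 rose and 2 fell (50%, against 7.94% of all tested genes), with a median log2 fold change of -0.47. *LUM*, which encodes the matrix proteoglycan lumican, fell from 238 ± 14.5 to 156 ± 20.1 FPKM, and *PTPRC*, which encodes CD45, from 28.5 ± 3.11 to 18.1 ± 2.04 FPKM (SD, n = 3 each; log2 fold changes -0.62 and -0.63, adjusted p = 0.0225 and 0.0202). These calls held in 8 and 7 of 16 alternatives, and were lost without any one of NCa, NCb, siPrp19b or siPrp19c, and with close pairs averaged (adjusted p = 0.304 and 0.268). In bulk RNA, fewer cells of a kind and less RNA per cell cannot be told apart, and the part of these markers in the levels of *VIM* or the EMT factors was not tested.

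The genes whose profile over the 6 libraries lay nearest to each gene of the set were found by the root mean square difference of centred log2(FPKM + 1) values, among 13718 genes. *SRP14* was nearest to both *VIM* (0.0182) and *SNAI1* (0.0218), whose own profiles had sizes of 0.231 and 0.209. The second nearest were *CRABP2* for *VIM* and *HECW2-AS1* for *SNAI1*. *SAP30* tracked *TWIST1* most closely of all, at 0.00941, followed by *CPSF4*. For the cadherins these were *TRAM1* and *DLGAP4* (*CDH2*), and *FERMT2* and *BAZ1B* (*CDH11*). For the other factors they were *COG5* and *AQR* (*ZEB1*), *NUP205* and *ODF2L* (*ZEB2*), and *RSRC1* and *THOC1* (*SNAI2*), the last at 0.0477 and 0.0506. The measure describes these 6 libraries only.

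**Figure D4:**
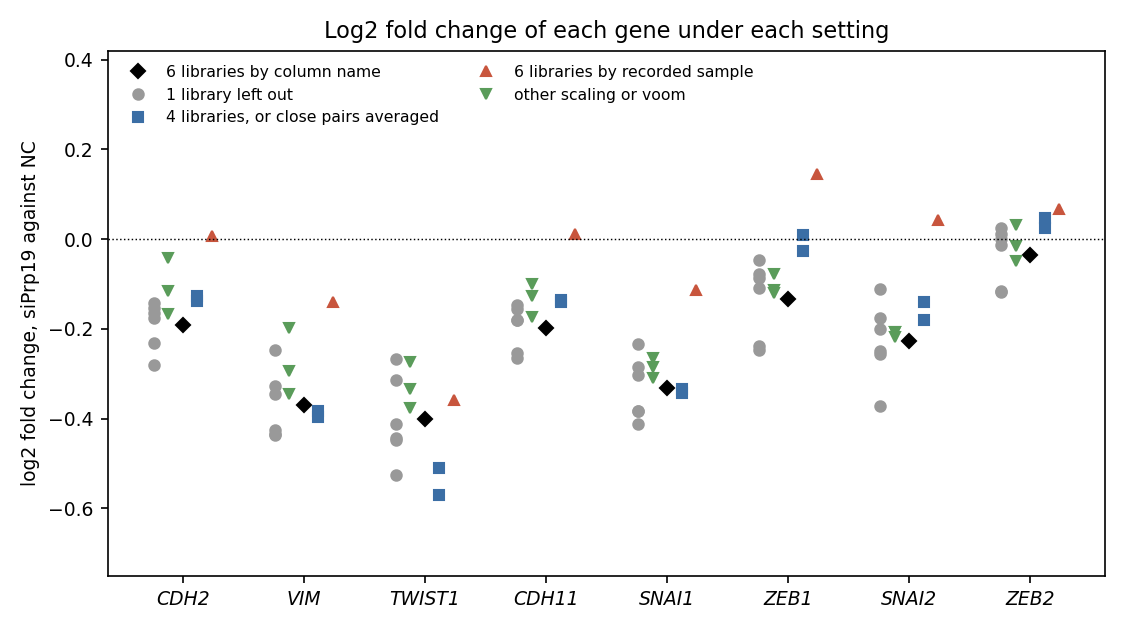
Log2 fold change of each gene, siPrp19 against NC, under each setting (symbols: the 6 libraries by column name, 1 library left out, 4 libraries or averaged pairs, the 6 libraries by recorded sample, and other scaling or voom). *VIM*, *SNAI1* and *TWIST1* stay below 0 in every setting shown, whereas *ZEB2* lies on both sides of 0.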

How the data were processed

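RNA-seq values were taken from 6 deposited tables, 1 per library, each with 1 FPKM value for 58735 Ensembl genes as the authors computed them. The submitters' processing notes name hg38, HISAT2 2.0.5 and featureCounts 1.5.0-p3; strandedness was not given in the sources used here. All identifiers were found in GENCODE 29 (GRCh38), and symbols came from a current table for 58207. FPKM multiplied by merged exon length was a whole multiple (tolerance 0.05 reads) of 1 constant per library for 100% of values above 0, which gave the reads behind each value. *CDH1*, *CDH2*, *VIM*, *TWIST1*, *ZEB1* and *ZEB2* share exonic sequence with opposite-strand genes, and *CDH11* with a same-strand gene, of at most 2.47 FPKM each, so some reads cannot be told apart. The pseudogenes *VIM2P*, *SNAI1P1* and *ZEB2P1* were at most at 0.0815 FPKM.

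Each library took the group of the sample whose description is its column name. The 13718 genes with a mean of at least 1 FPKM entered a trend fit in limma 3.58.1 (R 4.3.3) on log2(FPKM + 1). P-values were adjusted by Benjamini-Hochberg across these genes, at a threshold of 0.05. The study tested counts, which differs from this because the deposited unit is FPKM. Fold changes of low genes are understated on this scale. The labels do not say whether replicates were separate cultures, and the methods call them biological; p-values measure the spread between these libraries. The intervals of the fold changes came from limma and, like the p-values, rest on the spread between libraries within groups. The floor of 3 reads covers counting error only. The genes and lists were chosen with earlier results of these data known. Named genes were the whole set, *PRPF19*, per list those called (the 4 of smallest p, or the most abundant where none was called), and 2 nearest profiles per gene. *KRT8*, *KRT18*, *CDH10*, *HAND2*, *TH*, *DCN* and the genes at 0 were named outside this rule after their values were seen. Calls among the sympathoadrenal markers are not reported here. Alternatives were a pseudocount of 0.1, no filter, quantile and median-of-ratios scaling, no trend, voom, a replicate block, grouping by recorded sample, 4 libraries, averaged close pairs and leaving out each library; transcript length was added after the data were seen. The procedure was also run on simulated libraries drawn independently, without close pairs, so that run does not show how the fits behave on these libraries. Python 3.11.15, numpy 2.4.6, pandas 2.3.3, scipy 1.17.1 and matplotlib 3.10.9 were used.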

Additional observations from a re-analysis of the deposited data

How the results depend on the processing

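None of the 8 tested genes of the set passed the adjusted threshold in any of the 16 alternatives, including the 6 fits that each left out 1 library, where the count ran from 0 to 0. The smallest adjusted p-value of any of them was 0.0737. Of 128 recomputed log2 fold changes of these genes, 12 changed sign and 116 did not. With libraries grouped by their recorded sample, they were 0.0082 for *CDH2*, 0.0106 for *CDH11*, 0.0420 for *SNAI2*, 0.146 for *ZEB1* and 0.0667 for *ZEB2*. In the 4 libraries without NCb and siPrp19b, they were 0.0090 for *ZEB1* and 0.0240 for *ZEB2*. *ZEB2* was also at 0.0307 with voom, 0.0470 with close pairs averaged, 0.0252 without NCa, 0.0014 without siPrp19b and 0.0107 without siPrp19c, and fits without 1 library ran from -0.117 to 0.0252. Sizes also depended on scaling. The median over the 8 genes was -0.21 as deposited, -0.17 with voom and -0.16 after quantile normalization. In that order, *VIM* was at -0.37, -0.29 and -0.20, and *CDH2* at -0.19, -0.12 and -0.04. *ZEB2* went the other way after quantile normalization, from -0.03 to -0.05.

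The number of all genes called was 1089, and it was 512 without the filter on low values, 0 by recorded sample, 2 in the 4 libraries and 2 with close pairs averaged; fits without 1 library gave 253 to 1354. Of the 62 tested genes of the 7 pathway lists, 12 were called (19.4%, against 7.94% of all tested genes). Their number was 4 without the filter, and 0 by recorded sample, in the 4 libraries or with close pairs averaged. Fits without 1 library gave 3 to 14. What lies behind these shifts was not tested; several of the fits hold fewer libraries. Replicate numbers did not pair all of the libraries. Deviations from group means correlated at 0.13 between NCa and siPrp19a, -0.05 between NCb and siPrp19b, and 0.20 between NCc and siPrp19c. NCb and siPrp19b did not correlate best with their own number, whereas the other libraries did. With the replicate block, 928 genes, 9 list genes and 0 genes of the set were called. *CDH1* had at most 2 reads in any library, so a fall in it could not be detected.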

Other observations

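Mesenchymal genes outside the set moved in both directions. Of 12, all tested, 2 rose and 2 fell (33.3%, against 7.94% of all tested genes), with a median log2 fold change of -0.18. *ACTA2*, which encodes smooth muscle α-actin, was at 11.97, 10.3 and 10.8 FPKM in NCa, NCb and NCc, and at 5.53, 4.56 and 4.88 FPKM in siPrp19a, siPrp19b and siPrp19c (log2 fold change -1.01 ± 0.09 SE, adjusted p = 0.00254 by limma). *PDGFRB*, a receptor for platelet-derived growth factor, fell from 17.3 ± 1.51 to 12.5 ± 0.785 FPKM (SD, n = 3 each). *ITGA5*, the α chain of the fibronectin receptor, rose from 24.3 ± 0.463 to 36.7 ± 1.90 FPKM, and *TNC*, which encodes tenascin C, rose from 11.6 ± 1.99 to 18.3 ± 1.60 FPKM. Their adjusted p-values by limma were 0.0273, 0.00613 and 0.0350.

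Among 10 other intermediate filament genes, 7 were tested, and 1 rose and 0 fell (14.3%, against 7.94% of all tested genes). Their median log2 fold change was 0.22. *INA*, which encodes the neuronal filament protein α-internexin, rose from 1.72 ± 0.2003 to 3.81 ± 0.476 FPKM (SD, n = 3 each; 78 to 228 reads; limma, adjusted p = 0.00821). The 12 calls in the pathway lists kept their sign in every alternative run, but none of the 12 passed with close pairs averaged. The calls of *ACTA2*, *ITGA5* and *INA* held in 13 of 16 alternatives, and those of *PDGFRB* and *TNC* in 7. *PDGFRB* lost its call without any one of NCa, NCb, siPrp19b or siPrp19c, and *TNC* without any library but NCc.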
